A study of Schizosaccharomyces pombe with 21 samples.

Results

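The fission yeast genome (Schizosaccharomyces pombe) is annotated with many transcripts that carry no long open reading frame. The transcripts described here are the noncoding RNAs whose systematic identifier starts with SPNCRNA and whose name does not mark them as antisense to a gene. Of 893 such rows in the count table, 614 had at least 10 counts in at least 3 of the 21 libraries and were kept, 277 fell under that minimum, and 2 were set aside by name (SPNCRNA.1343 and prt2, which are transcribed upstream of the phosphate genes tgp1 and pho84). The 614 are part of 1527 SPNCRNA rows and of 6988 genes in all. At the edge of the minimum, 8 kept RNAs reached exactly 10 counts in their third-highest library, and 6 RNAs missed it by 1 count.

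RNA-seq of polyadenylated RNA was made from strain AGP72, whose genotype is given as h-, so all groups share a single background of 1 mating type. The reference group was taken from log phase culture in YES, a rich medium (0 h). The starved groups had spent 2, 4 or 8 h in ePMGT medium lacking phosphate, without a drug or with cycloheximide at 100 µg/ml, an inhibitor of translation elongation. Each of the 7 groups held 3 libraries, which the labels call biological replicates. Against 0 h, loss of phosphate and the change of medium cannot be told apart. By its title, the series concerns cells starved of phosphate.

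Long noncoding RNAs of this yeast are made by RNA polymerase II and are mostly short-lived, because the nuclear exosome and its helpers degrade them. Several act where they are made: a transcript that runs through the promoter of a neighbouring gene can repress it, and the phosphate genes pho1, pho84 and tgp1 are known examples. Others, such as sme2, hold RNA-binding proteins at their own locus during meiosis, and the protein Mmi1 marks meiotic transcripts for decay by binding the letters UNAAAC. A few entries are structured RNAs of the cell's machinery, among them the RNA of telomerase, of RNase P, of RNase MRP and of the signal recognition particle.

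The sequences that bear on the results follow, read 5′ to 3′ on the strand of each RNA from RefSeq's ASM294v3 reference, in which 600 of the 614 RNAs were found by identifier or listed synonym. The submitters' processing notes name another build, ASM294v2, so the annotated starts may differ from those used for counting, and no coordinates are given. SPNCRNA.935 lies on the plus strand of chromosome I and SPNCRNA.1326 on the minus strand of chromosome II. They are shown because both rose steeply during starvation and hold the letters TGACGT. The promoters of SPNCRNA.602, SPNCRNA.940, prl15 and prl43, which rose steeply as well, hold no copy of these letters. Each promoter covers 250 bases before and 50 after the annotated start, with capitals marking TGACGT on either strand, the core of the site that Atf1-type factors bind.

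SPNCRNA.935: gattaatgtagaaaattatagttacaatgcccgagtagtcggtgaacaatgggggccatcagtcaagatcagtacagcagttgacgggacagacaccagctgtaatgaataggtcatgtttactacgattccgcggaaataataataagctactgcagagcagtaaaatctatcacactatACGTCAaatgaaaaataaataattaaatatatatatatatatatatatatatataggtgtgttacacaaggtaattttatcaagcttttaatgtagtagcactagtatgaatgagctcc
SPNCRNA.1326: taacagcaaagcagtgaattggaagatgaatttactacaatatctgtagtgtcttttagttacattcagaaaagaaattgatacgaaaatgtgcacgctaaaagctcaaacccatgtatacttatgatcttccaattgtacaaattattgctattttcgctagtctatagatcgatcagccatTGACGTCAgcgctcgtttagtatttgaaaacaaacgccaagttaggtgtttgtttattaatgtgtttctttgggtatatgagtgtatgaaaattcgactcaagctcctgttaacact

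SPNCRNA.189 (plus strand of chromosome I), SPNCRNA.1034 and SPNCRNA.756 (minus strand of chromosome I) fell during starvation. Their promoters are shown because each holds CAGTCAC on 1 of its strands, in capitals, the core of the HomolD box known from ribosomal protein promoters of fission yeast.

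SPNCRNA.189: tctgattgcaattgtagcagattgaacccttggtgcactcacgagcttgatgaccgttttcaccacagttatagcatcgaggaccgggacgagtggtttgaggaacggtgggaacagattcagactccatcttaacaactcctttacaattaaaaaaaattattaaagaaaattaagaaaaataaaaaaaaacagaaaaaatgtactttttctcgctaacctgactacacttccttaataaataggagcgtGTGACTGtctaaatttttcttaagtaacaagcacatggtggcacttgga
SPNCRNA.1034: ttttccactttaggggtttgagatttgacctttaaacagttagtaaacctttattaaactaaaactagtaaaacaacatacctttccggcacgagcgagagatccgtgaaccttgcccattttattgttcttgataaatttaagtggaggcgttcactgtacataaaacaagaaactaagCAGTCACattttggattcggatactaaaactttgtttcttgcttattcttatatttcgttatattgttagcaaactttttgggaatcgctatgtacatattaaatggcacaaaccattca
SPNCRNA.756: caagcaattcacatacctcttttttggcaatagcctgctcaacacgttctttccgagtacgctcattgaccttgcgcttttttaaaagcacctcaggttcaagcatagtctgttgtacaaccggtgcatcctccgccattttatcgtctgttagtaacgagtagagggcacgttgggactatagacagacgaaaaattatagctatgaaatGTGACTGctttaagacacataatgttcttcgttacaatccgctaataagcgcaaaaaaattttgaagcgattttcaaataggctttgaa

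The stretch of sme2 below comes from the minus strand of chromosome II, bases 1362 to 1561 of the 1562 of its annotated span. It is the 200 bases with the most copies of TNAAAC, the DNA form of the Mmi1 motif, whose 7 copies are in capitals.

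sme2: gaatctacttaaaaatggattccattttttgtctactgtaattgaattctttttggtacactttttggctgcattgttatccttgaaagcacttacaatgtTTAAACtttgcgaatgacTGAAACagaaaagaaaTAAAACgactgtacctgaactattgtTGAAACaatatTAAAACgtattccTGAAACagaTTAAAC

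Total counts ran from 22079413 to 33563867 per library, of which 174010 to 388090 were at these RNAs. Without drug, the phosphate genes followed the labels: pho1, the secreted acid phosphatase, rose from 1591 ± 115 CPM at 0 h to 28693 ± 1832 at 8 h (CPM: TMM-scaled counts relative to library size, given as mean ± SD, n = 3). With cycloheximide, pho1 had 1435 ± 40.7, 1579 ± 102 and 1112 ± 152 CPM at 2, 4 and 8 h. None of these was called against 0 h by edgeR. With the drug, pho84 was called higher than at 0 h at 2 and 4 h but not at 8 h, and tgp1 at all 3 times. All of the listed M-cell genes (mfm1, mfm2, mfm3, mam1 and mam2) had counts, and mfm1, which encodes the M-factor pheromone of h- cells, went from 1.53 ± 0.272 CPM at 0 h to 315 ± 28.7 CPM at 8 h. The receptor gene map3, listed for P cells, had 14.7 ± 1.35 CPM at 0 h, and map2, also listed for P cells, had 6.5 ± 0.457 CPM. At 8 h without drug they had 25.3 ± 0.875 and 7.45 ± 0.57 CPM, neither called against 0 h. With cycloheximide at 2 h, map2 had 56.3 ± 1.76 CPM, called higher than at 0 h. In the same libraries mfm1 had 0.211 ± 0.0962 CPM, called lower than at 0 h. At 8 h, replicate 1 stood apart from replicates 2 and 3 in the share of counts at these RNAs (0.854% against 1.02% and 1.01%), so counts of calls that use the 8 h group are also given without it. Fewer cells that make an RNA and less of that RNA per cell cannot be told apart in these samples.

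By their names, 565 of the 614 RNAs carried a systematic number alone and 49 had a symbol. The symbols included 30 prl RNAs (found by their poly(A) tail and lack of a long reading frame), 3 meu RNAs (found as raised in meiosis), 3 nam RNAs (found bound to Mmi1) and 3 small nucleolar RNA entries. The label does not hold for all of them: 57 have a name or product text that calls them antisense, 106 have a product text that calls them a possible alternative untranslated region of an mRNA, 188 overlap a coding gene on the opposite strand only and 87 overlap one on the same strand in the reference. One entry, prl46, is described as a protein. Of the 600 found in the reference, 325 overlapped no coding gene, 265 lie on chromosome I, 216 on chromosome II and 119 on chromosome III, and the median length was 897 bases. Libraries were made with a stranded kit, but no source used here says whether reads were assigned by strand, and the counts of overlapping genes cannot be told apart with certainty.

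Most of these RNAs were scarce. The median level over the 7 groups was 4.12 CPM, against 84.1 CPM for protein-coding genes with the same count minimum. Per kilobase of reference length the medians were 4.54 CPM for 600 RNAs and 43.7 CPM for 5050 coding genes. Levels under 1 CPM were seen for 127 of the 614, and 6 exceeded 100 CPM. The median range between the lowest and highest group, on the log2(CPM + 0.1) scale, was 1.99 for the noncoding RNAs and 1.26 for the coding genes. For the 610 noncoding RNAs named as antisense with the same count minimum it was 2.12. The largest number, 202, had their highest group mean at 8 h without drug (222 without replicate 1 of 8 h), 150 at 2 h with cycloheximide, 83 at 8 h with cycloheximide and 82 at 0 h (54 when libraries were scaled by library size alone). In that order these are 32.9%, 24.4%, 13.5% and 13.4% of the 614. Among the coding genes the shares were 22.8%, 10.9%, 10.2% and 24.5%. Among the noncoding RNAs named as antisense they were 31.5%, 30%, 5.57% and 10.2%. An RNA could pass the count minimum through a single group, so some spread between groups is built into the choice.

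The most abundant was prl53, a poly(A)-bearing RNA with 1742 CPM per kilobase, which took more counts than any other in every group. Its level was 3336, 3208 and 3324 CPM at 0 h, 1901, 1874 and 1873 CPM at 4 h, and 5161, 5281 and 4846 CPM at 2 h with cycloheximide. The libraries with the drug at 2 h all lay above those at 0 h, which lay above those at 4 h. It overlaps SPAC27E2.11c on the same strand, a gene at 0.161 ± 0.181 CPM at 0 h. The next by level per kilobase were omt3 at 285 CPM per kilobase and mrp1, the RNA of RNase MRP, at 158 CPM per kilobase.

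At the other end, the RNAs with the least change across the groups among the well counted were SPNCRNA.1083, SPNCRNA.1263, SPNCRNA.1503 and SPNCRNA.1595. SPNCRNA.1083 stayed between 37.7 CPM in its lowest library, at 4 h, and 50.5 CPM in its highest, at 2 h. None of these 4 was called in any comparison of a starved group with 0 h or of the drug with no drug. That follows from their choice, since a call required a change of at least 2-fold.

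Differences between groups were tested with edgeR's quasi-likelihood test on all 6392 genes that passed the filter on low counts. Calls required a change of at least 2-fold and a p below 0.05 after Benjamini-Hochberg adjustment, and "rose" and "fell" refer to that call. Of the 614 RNAs, 609 were tested. Counts of called RNAs describe those that passed both filters. RNAs named for the largest changes were chosen among called RNAs whose libraries did not overlap between the compared groups. For them, a lack of overlap follows from that choice and adds no support.

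After 2 h without phosphate, 36 noncoding RNAs were called higher and 17 lower than at 0 h (5.91% and 2.79% of those tested, the latter 1.22% with a stricter filter on low counts). Over all tested genes the shares were 3.94% higher and 1.81% lower. At 4 h the counts were 119 higher and 103 lower, beside 14.2% and 13.9% over all genes. With library size alone as the scaling, which moved the median of all genes to 0.20 on the log2 scale, the split at 4 h became 146 higher and 79 lower. At 8 h, 189 were higher and 81 lower, or 31% and 13.3%, beside 19% and 15.6% over all genes. Without replicate 1 of 8 h, the counts were 201 and 71. Noncoding RNAs named as antisense had like shares at 8 h, 32.2% higher and 14.2% lower. The median log2 change of the 609 RNAs was -0.03 at 2 h, -0.01 at 4 h and 0.34 at 8 h, while that of all genes was -0.02, -0.00 and -0.01. These 3 comparisons share the 0 h libraries.

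From 2 to 4 h, 69 of the 609 RNAs rose and 55 fell, beside 7.6% and 6.62% over all genes. Between 4 and 8 h, 80 of the 609 RNAs rose and 11 fell (13.1% and 1.81%, the latter 3% among RNAs with no overlap with another gene). All genes had 3.77% higher and 2.78% lower, and the 5056 coding genes had 104 higher and 112 lower. Noncoding RNAs named as antisense had 6.22% higher and 8.67% lower. The median log2 change was 0.36 for the 609 RNAs and 0.00 for all genes. Without replicate 1 of 8 h, 115 rose and 13 fell.

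**Figure D1:**
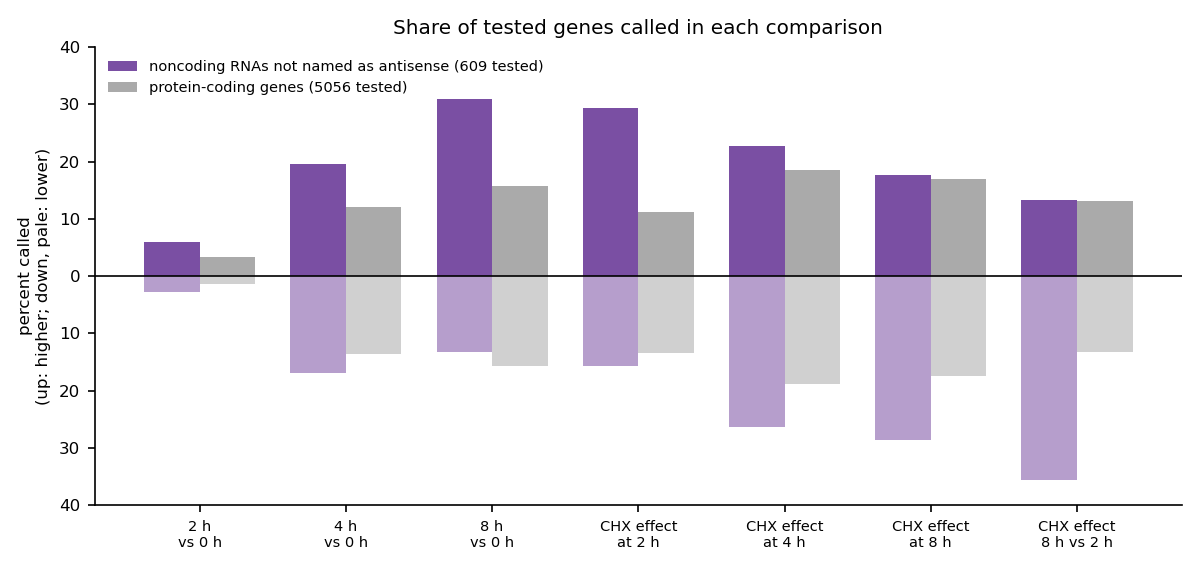
Percent of tested genes called higher (bars upward) and lower (pale bars downward) in 7 comparisons, for the 609 tested noncoding RNAs (purple) and 5056 protein-coding genes (grey). The purple bar upward is tallest for 8 h against 0 h (31%), and the purple bar downward is longest for the difference of the cycloheximide effect between 8 h and 2 h (35.6%).

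SPNCRNA.935 had the largest rise in the first 2 h. It lies in tandem between rpl1002, which encodes a ribosomal protein of the large subunit, and per1, an amino acid transporter gene of the plasma membrane, and overlaps another noncoding RNA, SPNCRNA.934. Its level was 4.69, 5.9 and 5.56 CPM at 0 h, 301, 311 and 253 CPM at 2 h, 548, 590 and 572 CPM at 4 h, and 413, 422 and 418 CPM at 8 h. Every starved library without drug lay above every library at 0 h. The log2 change was 5.74 ± 0.15 (SE) at 2 h and 6.28 ± 0.15 at 8 h, with adjusted p-values of 2.7e-18 and 1.8e-20 from edgeR. With cycloheximide its level stayed at 12.2, 15.1 and 9.25 CPM at 2 h and reached 54.1, 49.9 and 36.4 CPM at 8 h, a log2 difference from no drug of -4.55 ± 0.13 at 2 h and -3.16 ± 0.11 at 8 h (adjusted p 1.1e-18 and 2.1e-17). The neighbour rpl1002 went from 1099 ± 46.2 to 22.4 ± 1.35 CPM between 0 and 8 h, and per1 from 25.7 ± 1.19 to 81.8 ± 3.21 CPM. The overlapping SPNCRNA.934 had 37.1 ± 1.6 CPM at 0 h and 41.2 ± 2.26 CPM at 8 h.

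Another steep rise was that of SPNCRNA.602, an intergenic RNA whose divergent neighbour is nhe1. It went from 1.54, 1.98 and 1.53 CPM at 0 h to 33.9, 31.4 and 28.2 CPM at 4 h and 61.7, 58.5 and 57.6 CPM at 8 h. The groups of 0 h and 8 h did not overlap, which was a condition of its choice. The log2 change at 8 h was 5.15 ± 0.13 (edgeR adjusted p = 7.3e-20). The nhe1 gene, which encodes a sodium ion/proton antiporter, had 110 ± 2.43 CPM at 0 h and 190 ± 5.75 at 8 h and was not called.

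SPNCRNA.1326 and SPNCRNA.1325 lie upstream of fbp1, the gene for fructose-1,6-bisphosphatase of gluconeogenesis, on the same strand. Long noncoding RNAs that start upstream of fbp1 and run toward it are known in this yeast from glucose starvation. SPNCRNA.1326 had 0.0853, 0.0967 and 0.0713 CPM at 0 h, from 6 counts over the group, and 3.86, 3.09 and 3.73 CPM at 8 h. All libraries at 8 h lay above those at 0 h, with a log2 change of 5.34 ± 0.48 (adjusted p = 6.9e-10). SPNCRNA.1325 rose from 1.67 to 11.4 CPM by 4 h (log2 2.77 ± 0.13) and had 2.25 CPM at 8 h, which was not called against 0 h. The fbp1 mRNA itself rose from 5.23 ± 0.65 to 384 ± 37.8 CPM at 8 h, and wwm3, the divergent neighbour of SPNCRNA.1326, from 2.99 ± 0.386 to 81.8 ± 11.2 CPM.

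SPNCRNA.940 shares an intergenic region with SPAC4H3.08, a 3-hydroxyacyl-CoA dehydrogenase gene that is transcribed away from it. It rose from 0.384, 0.193 and 0.178 CPM at 0 h to 9.37, 9.42 and 10 CPM at 8 h, without overlap of the groups, and the log2 change was 5.24 ± 0.27 (adjusted p = 3.1e-14). SPAC4H3.08 rose from 10 ± 0.695 to 971 ± 11 CPM.

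Among the meiotic RNAs, meu3 and meu19 rose and meu16 fell. The level of meu3 was 2.3, 2.37 and 1.6 CPM at 0 h, 8.51, 7.37 and 6.7 CPM at 4 h and 20.1, 40.9 and 34.3 CPM at 8 h. Replicate 1 of 8 h was the lowest of its group and still above all libraries at 4 h. The log2 change at 8 h was 3.95 ± 0.26 (adjusted p = 1.9e-12), and 4.19 without that library. For meu19 the levels were 6.36, 6.38 and 5.95 CPM at 0 h and 20.4, 31.5 and 29.3 CPM at 8 h (log2 2.12 ± 0.14). For meu16, whose product text calls it antisense and which overlaps mde6 on the opposite strand, they were 18.5, 19.5 and 18.4 CPM at 0 h and 7.09, 8.02 and 7.73 CPM at 8 h (log2 -1.30 ± 0.09). In each of the 3 the libraries at 8 h and at 0 h did not overlap.

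The sme2 RNA, which gathers Mei2 at its locus for the pairing of homologous chromosomes in meiosis, had 3.75, 3.77 and 2.85 CPM at 0 h and 13.7, 22.5 and 20.2 CPM at 8 h. Every library at 8 h exceeded every library at 0 h, with a log2 change of 2.46 ± 0.20 (adjusted p = 8.3e-11). It overlaps mrpl8 on the same strand. In its span the hexamer TNAAAC occurs 9 times, or 5.76 times per kilobase, which is the rank 26 of 600 RNAs. The median was 1.97 per kilobase for these RNAs and 1.65 for coding genes. The nam1 RNA, which lies upstream of byr2, a kinase gene of sexual differentiation, and overlaps mlo3 on the same strand, holds 9 copies as well (6.04 per kilobase, rank 21). It rose from 13.9, 14.5 and 13.2 CPM at 0 h to 37.3, 43.2 and 43.1 CPM at 8 h (log2 1.58 ± 0.09). Of the 3 nam RNAs, 2 were called higher at 8 h, and nam3 (2.41 per kilobase, rank 226) was not called (log2 -0.81). Among the RNAs named here, densities above that of nam1 were seen in SPNCRNA.1034 (7.37 per kilobase, rank 13) and SPNCRNA.1444 (6.21 per kilobase, rank 19). Both of these fell at 8 h.

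Of the 30 prl RNAs, 29 were tested, and at 8 h 10 of them were higher and 1 lower than at 0 h (34.5% and 3.45%, beside 31% and 13.3% of all the tested noncoding RNAs and 19% and 15.6% of all genes). Their median log2 change was 0.82. With replicate 1 of 8 h left out, 13 were higher and 0 lower. Some of the steepest of these rises were in RNAs of low level. The level of prl15, which overlaps SPBC27B12.05 on the opposite strand and has a product text that calls it antisense, went from 0.0853, 0.193 and 0.107 CPM to 3.76, 4.45 and 3.88 CPM (log2 4.97 ± 0.28). That of prl43 went from 0.341, 0.193 and 0.321 CPM to 2.21, 7.5 and 7.73 CPM (log2 4.30 ± 0.44, and 4.69 without replicate 1 of 8 h). The better counted prl1 was at 17.4, 17.8 and 18 CPM at 0 h, 35.6, 36.1 and 36.8 CPM at 2 h and 71.6, 81.2 and 78.9 CPM at 8 h, with a log2 change of 2.12 ± 0.06 at 8 h.

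The steep drops at 8 h included those of SPNCRNA.1444, SPNCRNA.189, SPNCRNA.291 and SPNCRNA.1073. SPNCRNA.1444, which lies next to the ribosomal protein gene rpl26 on the same strand, went from 2.09, 2.56 and 1.96 CPM at 0 h to 0.0351, 0.0325 and 0.0769 CPM at 8 h (log2 -5.41 ± 0.42, from 157 and 4 counts over the groups). SPNCRNA.291 went from 22.8, 22.1 and 21.1 CPM to 0.877, 1.01 and 1.19 CPM (log2 -4.42 ± 0.14). SPNCRNA.1073, whose divergent neighbour is cdc4, went from 12.7, 14.3 and 13.8 CPM to 0.421, 0.942 and 0.692 CPM (log2 -4.29 ± 0.18). In these 3 the groups did not overlap, and the adjusted p-values from edgeR were 4.6e-11, 1.7e-18 and 3.8e-16. Among abundant RNAs, SPNCRNA.863 fell from 361, 343 and 336 CPM at 0 h to 159, 151 and 167 CPM at 2 h and 46, 77.6 and 78.7 CPM at 8 h, with a log2 change of -2.36 ± 0.20 at 8 h.

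**Figure D2:**
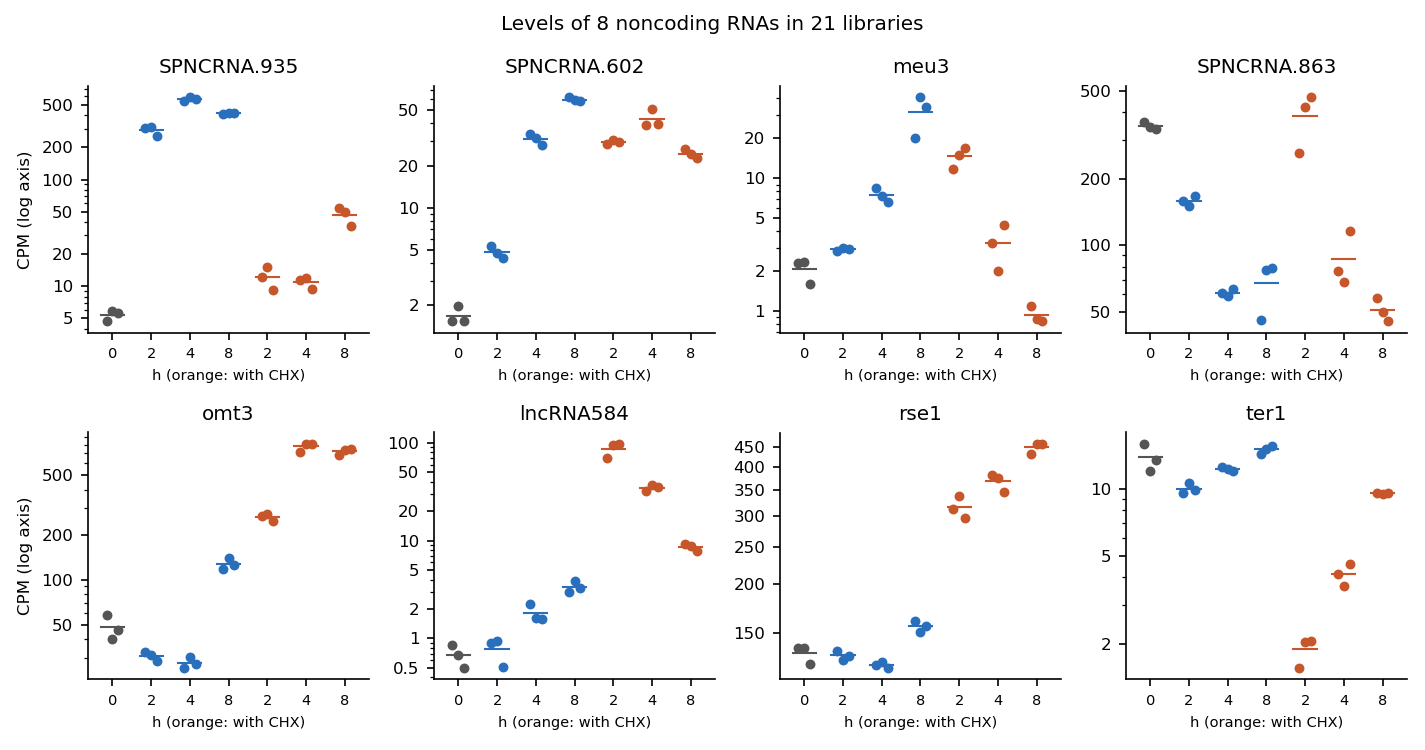
Level of 8 noncoding RNAs in CPM (log axes that differ between panels) against hours of starvation, with 1 point per library and a line at the mean of each group of 3; grey is 0 h, blue is without drug and orange with cycloheximide. SPNCRNA.935 climbs from a mean of 5.38 CPM to at most 590 CPM without drug and reaches at most 54.1 CPM with it. With the drug, omt3, lncRNA584 and rse1 are higher at every time and ter1 is lower at every time, by less than 2-fold at 8 h.

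SPNCRNA.189, SPNCRNA.1034 and SPNCRNA.756, whose promoters were given with CAGTCAC marked, belong to 10 RNAs with that motif among the 77 that fell at 8 h and were found in the reference, or 13%. Only these letters and their reverse complement GTGACTG were searched. The motif was held by 4.67% of the promoters of 600 noncoding RNAs, by 1.63% of the 184 that rose, by 4.71% of 5112 coding promoters and by 3.25% of all 12605 promoters of the reference. It was held by 14.7% of the 68 that fell and 1.52% of the 197 that rose without replicate 1 of 8 h. In 8 of the 10 the nearest coding gene on the 5′ side points the other way, so that parts of a window can lie in the promoter of that gene too, and in 5 of these 8 that gene fell as well, beside 15.7% of all coding genes. These 5 genes were rps3001, rps1801 and rps2202, which encode proteins of the small ribosomal subunit, byr3, a translational activator gene, and rlp7, a gene of ribosome production.

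SPNCRNA.1034 had 9.47, 11.6 and 9.27 CPM at 0 h and 1.09, 1.69 and 1.42 CPM at 8 h (log2 -2.84 ± 0.15), and its neighbour rps3001 went from 888 ± 33.5 to 172 ± 12 CPM. SPNCRNA.756 had 24.2, 20.9 and 19.4 CPM at 0 h and 3.12, 3.74 and 3.5 CPM at 8 h (log2 -2.63 ± 0.11), while rlp7 on its 5′ side went from 366 ± 6.79 to 73.8 ± 3.23 CPM and rpl13 on its 3′ side from 4200 ± 192 to 851 ± 90.5 CPM. SPNCRNA.189 had 2.13, 1.89 and 1.68 CPM at 0 h and at most 0.231 CPM at 8 h (log2 -4.45 ± 0.40), beside byr3, which went from 745 ± 6.87 to 101 ± 3.46 CPM. With cycloheximide at 8 h the same RNAs stood at 8.46, 8.61 and 8.44 CPM for SPNCRNA.1034, 11.8, 13.2 and 13.4 CPM for SPNCRNA.756 and 2.92, 2.64 and 3.18 CPM for SPNCRNA.189. All of these drug libraries lay above those at 8 h without drug, a comparison that shares the 8 h libraries with that against 0 h.

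The motif TGACGT, marked in the promoters of SPNCRNA.935 and SPNCRNA.1326, occurred in 8.17% of the noncoding promoters, in 9.78% of those of RNAs that rose at 8 h, in 7.79% of those that fell and in 5.49% of all promoters. In SPNCRNA.1326 the copies on the 2 strands overlap in TGACGTCA. Of the other motifs searched on both strands, ACGCGT was held by 2.17% of the noncoding promoters and 2.46% of all promoters. For TTCTTTGT the shares were 5.67% and 3.93%, for TATAAA 45.2% and 45.3%, and for a Pho7-type motif 6.5% and 6.7%.

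Where no coding gene overlapped an RNA and the nearest coding gene on its 5′ side was divergent, both could be tested in 256 pairs, with 240 different neighbours. Across these pairs the log2 changes at 8 h against 0 h had a Pearson correlation of 0.36, given as a description, since both values come from the same libraries and some pairs share a neighbour. Of the 74 noncoding RNAs in these pairs that rose, the neighbour rose in 26 and fell in 0. Of the 41 that fell, the neighbour fell in 10 and rose in 8. Of the 240 neighbours, 24.6% rose and 11.2% fell, and of all coding genes 15.8% and 15.7%. Without replicate 1 of 8 h, the neighbour rose in 30 and fell in 2 of 79 pairs in which the RNA rose, and fell in 10 and rose in 9 of 37 in which it fell. In the 53 pairs with the 5′ neighbour in tandem the correlation was -0.05, in 238 pairs with the 3′ neighbour in tandem 0.14, in 77 convergent pairs 0.20, in 84 same-strand overlaps 0.16 and in 187 opposite-strand overlaps 0.14. In other comparisons the order of the arrangements was not the same. With cycloheximide at 4 h against 0 h the correlation was 0.46 in divergent pairs, 0.16 with the 5′ neighbour in tandem, 0.41 with the 3′ neighbour in tandem, -0.06 in convergent pairs, 0.39 in same-strand overlaps and 0.17 in opposite-strand overlaps.

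**Figure D3:**
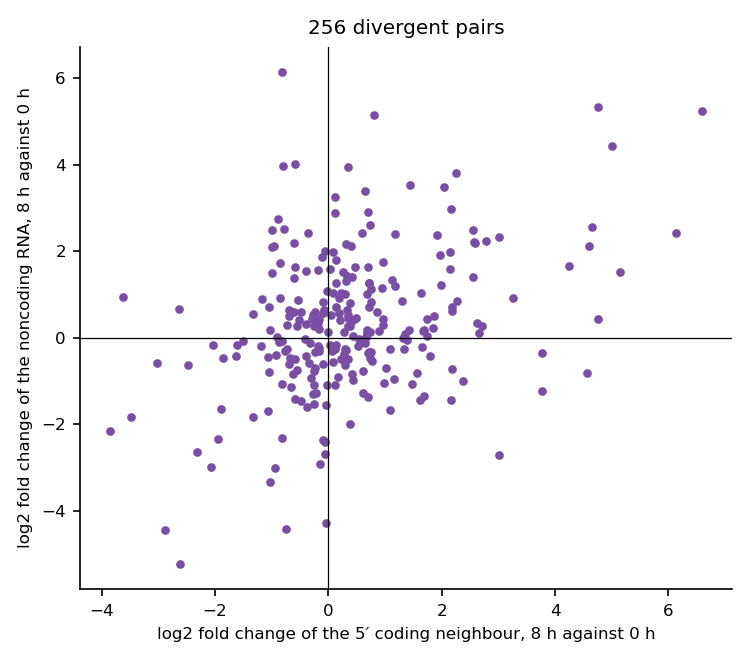
Log2 fold change at 8 h against 0 h of 256 noncoding RNAs (vertical) against that of the divergent coding gene on their 5′ side (horizontal), 1 point per pair. The points spread widely along both axes (Pearson r 0.36), and the upper right holds more points far from 0 than the upper left.

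Cycloheximide at 2 h of starvation raised 179 of the 609 RNAs and lowered 96 relative to 2 h without drug, or 29.4% and 15.8%. Over all tested genes 15.8% were higher and 13.5% lower, and of the noncoding RNAs named as antisense 31.6% and 13.3%. At 4 h the counts were 138 higher and 160 lower beside 19.9% and 20.9% over all genes, and at 8 h 108 higher and 175 lower beside 17.1% and 20.8% (106 and 195 without replicate 1 of 8 h). The median log2 difference was 0.21 at 2 h, -0.12 at 4 h and -0.34 at 8 h, while that of all genes was -0.04, -0.04 and -0.03. These comparisons share no library. Of the RNAs called higher at 2 h, 40.2% were also called higher at 8 h, which is 66.7% of those higher at 8 h. Over all genes these shares were 44.4% and 41.2%. Of the RNAs called lower at 2 h, 56.2% were called lower at 8 h, or 30.9% of those lower at 8 h, beside 57.9% and 37.5% over all genes. At all 3 times 63 RNAs were higher and 51 lower, or 10.3% and 8.37% of those tested, beside 6.65% and 7.53% over all genes. These counts were 62 and 53 without replicate 1 of 8 h.

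Against 0 h, the starved cells with the drug had 187 higher and 107 lower at 2 h, beside 17% and 14.5% over all genes. At 4 h there were 131 and 141 beside 14.8% and 14.8%, and at 8 h 149 and 109 beside 12.6% and 14.1%.

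The drug effect at 8 h was compared with that at 2 h by the interaction term of the fit. It was higher at 8 h for 81 RNAs and lower for 217, or 13.3% and 35.6% (the former 20.5% among RNAs with no overlap with another gene). Over all genes 12.6% were higher and 19.4% lower, and of the noncoding RNAs named as antisense 8.51% and 49.3%. The median difference was -0.53 on the log2 scale for the RNAs and 0.02 for all genes. Without replicate 1 of 8 h the counts were 71 and 235. There were 29 RNAs called higher with the drug at 2 h and lower at 8 h, and 2 with the reverse, or 4.76% and 0.328% of those tested. Over all genes the shares were 2.16% and 0.156%. The counts were 35 and 2 without replicate 1 of 8 h.

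**Figure D4:**
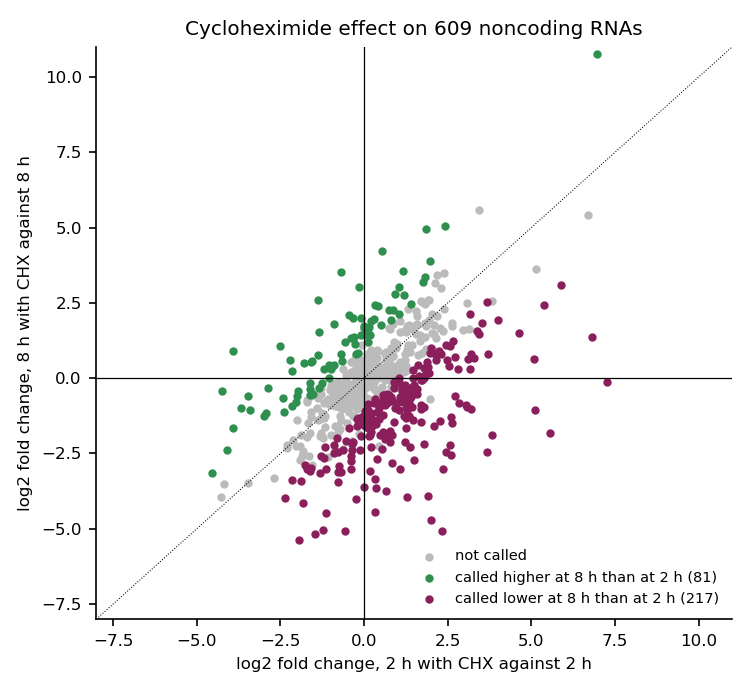
Log2 fold change of cycloheximide against no drug at 8 h (vertical) and at 2 h (horizontal) for 609 noncoding RNAs; the dotted line marks equal effects. Green points (81) were called higher at 8 h than at 2 h and purple points (217) lower by the interaction term, and the purple points below the line outnumber the green ones above it.

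The share of all counts taken by the 614 RNAs was 0.815%, 0.756% and 0.767% at 0 h, 0.8%, 0.781% and 0.779% at 2 h, 0.753%, 0.76% and 0.769% at 4 h, and 0.854%, 1.02% and 1.01% at 8 h. With cycloheximide it was 1.19%, 1.28% and 1.27% at 2 h, 1.06%, 1% and 1.1% at 4 h, and 1.11%, 1.1% and 1.08% at 8 h. At each time every library with the drug lay above every library without it. The mean difference was 0.296 percentage points, with p = 0.00025 by exact permutation (two-sided, libraries exchanged within each time), which is the smallest p that its 8000 arrangements allow. A single RNA, prl53, gave 0.17 points of this difference. Without the 10 most abundant RNAs the difference was 0.0335 points (exact permutation p = 0.28), and it was 0.169 points at 2 h, 0.0122 at 4 h and -0.0802 at 8 h. Shares of counts depend on all other RNAs in a library.

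**Figure D5:**
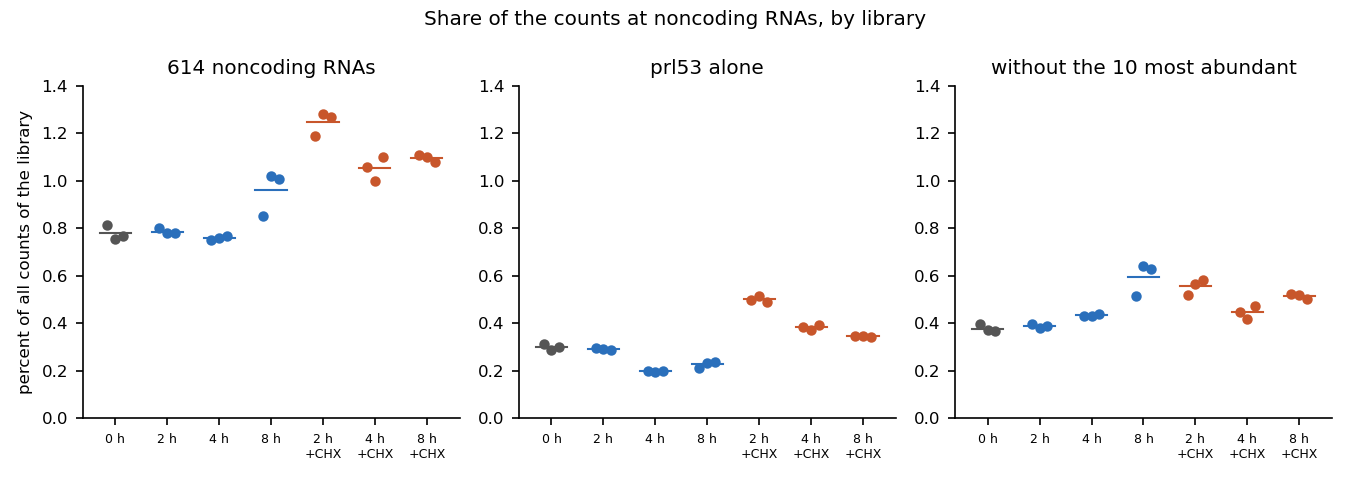
Percent of all counts of each library at the 614 noncoding RNAs (left), at prl53 alone (middle) and at the noncoding RNAs without the 10 most abundant (right), by group, with a line at each mean of 3 libraries. The drug libraries (orange) are above the starved libraries without drug (blue) at each time on the left and in the middle, and on the right the groups with and without drug at 4 h and at 8 h are close or in the other order.

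Among the RNAs linked to meiosis, omt3 and lncRNA584 were higher with cycloheximide at all 3 times. Both are annotated as meiosis-specific, and lncRNA584 as an RNA of the foci that Smp proteins form on meiotic chromosomes. The level of omt3 was 57.8, 40.2 and 45.9 CPM at 0 h, 32.6, 31.4 and 28.7 CPM at 2 h, 25.7, 30.3 and 27.1 CPM at 4 h, and 117, 140 and 126 CPM at 8 h. With the drug it was 266, 275 and 248 CPM at 2 h, 713, 810 and 808 CPM at 4 h, and 685, 732 and 746 CPM at 8 h. No library with the drug overlapped any without it. The log2 differences were 3.09 ± 0.10, 4.81 ± 0.10 and 2.50 ± 0.09 at the 3 times, with adjusted p-values of 5.5e-18, 2.4e-21 and 2.2e-17. Its divergent neighbour is mei2, the RNA-binding regulator of meiosis, which had 234 ± 10.4 CPM at 4 h without drug and 988 ± 34.2 CPM with it.

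At 2 h lncRNA584 had 0.897, 0.93 and 0.505 CPM without and 69.8, 95 and 98.4 CPM with the drug, a log2 difference of 6.81 ± 0.18 (adjusted p = 2.4e-19). At 8 h it was 2.95, 3.83 and 3.31 CPM without and 9.3, 8.88 and 7.78 CPM with the drug, a log2 difference of 1.36 ± 0.16. The groups with and without the drug did not overlap at any time, and the difference was smaller at 8 h by -5.46 ± 0.28 on the log2 scale (adjusted p = 4.7e-14). It overlaps wtf25 on the same strand, which at 2 h had 23.5 ± 1.42 CPM without and 22.7 ± 1.76 CPM with the drug.

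The rse1 RNA is divergent from ste11, the master gene of sexual differentiation, and is described as its repressor in cis. It had 135, 128 and 131 CPM at 2 h and 161, 151 and 156 CPM at 8 h, and 313, 337 and 296 CPM at 2 h and 434, 459 and 460 CPM at 8 h with the drug. Libraries with the drug exceeded all others, by 1.26 ± 0.05 at 2 h and 1.53 ± 0.05 at 8 h on the log2 scale (adjusted p 2.3e-16 and 3.4e-18). The ste11 mRNA stood at 111 ± 8.18 CPM at 2 h, and at 8 h it had 146 ± 22.8 CPM without and 376 ± 10.6 CPM with the drug.

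The meu RNAs went the other way at 8 h. With the drug meu3 was at 11.8, 15.1 and 17.1 CPM at 2 h, above all libraries of 2 h without drug, and at 1.1, 0.879 and 0.84 CPM at 8 h, below all libraries of 8 h without drug. The log2 differences were 2.32 ± 0.25 and -5.09 ± 0.28, and their difference was -7.41 ± 0.38 (adjusted p = 5.8e-14). For meu19 the level with the drug at 8 h was 0.972, 0.674 and 0.657 CPM (log2 -5.16 ± 0.20), and for meu16 it was 1.31, 1.2 and 1.28 CPM (log2 -2.59 ± 0.13). At 8 h nam1 was lower with the drug by -1.34 ± 0.09 (17, 16.7 and 15.2 CPM), and sme2 by -1.25 ± 0.17 (8.16, 8.29 and 7.23 CPM). The prl15 RNA fell from its starved level to 0.0846, 0.117 and 0.146 CPM with the drug at 8 h (log2 -5.05 ± 0.27).

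Among the structured RNAs, the telomerase RNA ter1 had a lower level with cycloheximide. In libraries of polyadenylated RNA its counts cover the tailed part, so amount and tailing of ter1 cannot be told apart. At 2 h it had 9.58, 10.6 and 9.92 CPM without and 1.56, 2.05 and 2.07 CPM with the drug, and 14.4, 15.2 and 15.6 CPM at 8 h against 9.6, 9.49 and 9.61 CPM with it. The groups did not overlap at either time, with log2 differences of -2.42 ± 0.12 (adjusted p = 2.2e-14) and -0.66 ± 0.09, the latter short of 2-fold. The gap closed with time by 1.76 ± 0.16 on the log2 scale (adjusted p = 7e-10).

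The RNA of RNase MRP, mrp1, and that of RNase P, rrk1, were higher. For mrp1 the levels were 44.6, 39.8 and 43 CPM at 2 h and 167, 164 and 150 CPM with the drug (log2 1.92 ± 0.07), and at 8 h 39.8, 32.4 and 33.8 CPM and 46.6, 46 and 43.8 CPM (log2 0.36 ± 0.08, not called). For rrk1 they were 25.4, 16.7 and 24.2 CPM at 2 h and 70.3, 71.8 and 64.5 CPM with the drug (log2 1.64 ± 0.11), and at 8 h 15, 13.2 and 13.8 CPM and 13.4, 14.7 and 15.4 CPM (0.06 ± 0.12). At 2 h the groups were apart for both RNAs, and at 8 h those of rrk1 overlapped. The 7SL RNA srp7 had 1.33, 1.47 and 1.88 CPM at 2 h and 8.84, 8.01 and 5.66 CPM with the drug (log2 2.28 ± 0.25). At 8 h srp7 went the other way and was called lower with the drug than without it. The snoZ entry, the primary transcript of a cluster of small nucleolar RNAs, had 4.49, 4.84 and 4.98 CPM at 2 h and 20.9, 20.6 and 22.3 CPM with it (log2 2.15 ± 0.11). These RNAs normally lack a long poly(A) tail, so in libraries of polyadenylated RNA the counts cover the tailed part of them, and amount and tailing cannot be told apart.

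Other RNAs that cycloheximide raised were nearly silent without it. SPNCRNA.318, which lies upstream of cta3, a gene for a potassium-exporting pump, had 3 counts over the 0 h libraries, 3 at 2 h, 2 at 4 h and 0 at 8 h. With the drug it had 5.68, 5.07 and 4.62 CPM at 2 h and 9.3, 8.03 and 6.68 CPM at 8 h. At 8 h this is at least 228-fold higher, with a floor of 3 counts over the 8 h group. At 2 h the cta3 mRNA had 9.77 ± 0.871 CPM without and 4780 ± 203 CPM with the drug. SPNCRNA.1217 went from 0.179, 0.116 and 0.289 CPM at 2 h to 19.4, 22.4 and 20.3 CPM with the drug (log2 6.69 ± 0.21). SPNCRNA.1258, which overlaps the peroxiredoxin gene tpx1 on the same strand, went from 0.251, 0.542 and 0.469 to 22.3, 27.6 and 25 CPM (log2 5.89 ± 0.19). SPNCRNA.1432, which overlaps the histone gene hhf2 on the same strand, went from 1.33, 1.98 and 1.59 to 64.7, 67.7 and 71 CPM (log2 5.38 ± 0.12). None of these groups overlapped.

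The RNAs that the drug lowered at all 3 times included SPNCRNA.1182, SPNCRNA.1278 and SPNCRNA.1069. SPNCRNA.1182, which overlaps osh6 on the opposite strand, had 7.64, 7.28 and 6.93 CPM at 2 h and 0.511, 0.323 and 0.224 CPM with the drug (log2 -4.29 ± 0.23). SPNCRNA.1278, beside the cell wall synthase gene bgs4, had 32.2, 25 and 28.1 CPM and 2.97, 2.19 and 2.56 CPM (log2 -3.46 ± 0.12). SPNCRNA.1069, beside gas5, had 38.8, 31.9 and 34.6 CPM and 2.3, 1.76 and 1.66 CPM (log2 -4.18 ± 0.12). These differences were of like size at 8 h, at -3.94 ± 0.18, -3.48 ± 0.12 and -3.52 ± 0.13. SPNCRNA.1334 was not called at 2 h (-0.56 ± 0.09) and was lower by -5.08 ± 0.14 at 8 h, with 27.5, 26.7 and 28.4 CPM without and 0.465, 0.908 and 0.986 CPM with the drug.

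The pair of phosphate-linked entries that remain among the RNAs, named nc-tgp1 and nc-pho1 in the count table's annotation, overlap tgp1 and pho1 on the same strand. At 2 h nc-tgp1 had 23.3, 26.9 and 22.1 CPM without and 126, 134 and 137 CPM with the drug (log2 2.46 ± 0.07), and nc-pho1 had 2.08, 2.4 and 2.24 CPM without and 22.1, 26.7 and 29.2 CPM with it (log2 3.53 ± 0.14). The tgp1 mRNA went the other way, with 497 ± 35.8 CPM at 2 h and 202 ± 9.26 CPM with the drug.

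Of 42 genes listed for turnover or silencing of noncoding RNAs, 1 was higher and 8 were lower at 8 h than at 0 h, or 2.38% and 19%, beside 19% and 15.6% over all genes. Of the listed exosome genes, rrp4 (-1.32 on the log2 scale), csl4 (-1.31), rrp40 (-1.23) and dis3 (-1.10) fell. The exosome genes rrp6, rrp41, rrp42, rrp43, rrp45, rrp46, mtr3 and cti1 were not called (-0.89 to -0.14). Also lower were cid14 (-1.56), mtr4 (-1.31), air1 (-1.03) and upf1 (-1.03). The 1 higher gene was arb2 (1.44), which encodes an argonaute binding protein. The silencing genes ago1, dcr1, rdp1, cid12, hrr1, chp1, tas3, stc1, ers1 and arb1 were not called (-0.87 for chp1 to 0.88 for stc1). With the drug at 8 h, 7 of the 42 were higher and 3 lower than without it, or 16.7% and 7.14%, beside 17.1% and 20.8% over all genes. All 4 counts were the same without replicate 1 of 8 h. Their part in the levels of the noncoding RNAs was not tested.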

How the data were processed

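RNA-seq of polyadenylated RNA was measured in 21 libraries. The authors deposited counts, whole and not normalized, for each gene. Per the submitters' processing notes, which give no roles or settings, the build was ASM294v2 and the tools included HTSeq 0.10.0, HISAT2 2.1.0, DESeq2, DESeq and SAMtools. From 1 of the authors' deposited tables of log2 fold changes, only gene names and products were taken. Other deposited comparison tables were not used here.

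Groups were taken from the sample titles. All libraries entered 1 fit with group as its term in edgeR 4.0.16 (R 4.3.3, limma 3.58.1), scaled by TMM and filtered on low counts by filterByExpr (596 genes removed, 6392 tested, 5 of the 614 RNAs not tested). Adjustment ran over all tested genes. The SE is |log2 fold change| over the root of F, and CPM uses TMM-scaled library sizes. Depth was 22079413 to 33563867 counts per library, so RNAs of low CPM rest on few counts. The test was also run on simulated counts in which some noncoding RNAs were changed in the 8 h group and all other genes were not. In the data 34.6% of all tested genes were called at 8 h against 0 h. The simulation therefore does not cover scaling and calling under such broad change. Members and gene lists were chosen with earlier results of these data known. The libraries of a pair of replicates were further apart than sampling noise (mean chi-square per gene 3.66 to 23.6 over 21 pairs), so no library was counted as a copy.

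RNAs named in the text are the 6 highest and 6 lowest log2 changes per comparison (4 for time steps and the interaction) among called RNAs whose higher group averaged 50 or more scaled counts and whose libraries did not overlap (a condition not applied to the interaction). Added to these are up to 4 per name family, all with a symbol other than a number, the 6 most abundant, the 4 with the smallest range, and their coding neighbours. SPNCRNA.934 and the motif genes rps1801 and rps2202 were named after their values were seen. Neighbours, lengths and promoters come from the RefSeq annotation of ASM294v3 by gene identifier. Shares of counts were compared by exact permutation within times. The marker list held 5 M-cell genes, 3 genes listed as P-cell (of which mam3 is known as M-cell specific, so its level was not used) and 3 phosphate genes, and a further list held 42 genes of noncoding RNA turnover or silencing.

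Alternatives were library size alone, RLE size factors, all genes without a filter, a stricter filter (mean of at least 100 counts), DESeq2 1.42.0, a fit of only the groups compared, a block for the replicate number, RNAs with at least 50 counts in 3 libraries, RNAs with no overlap with a gene of the table, shares without the 10 most abundant RNAs or of protein-coding counts, each library left out, and, added after the data were seen, shares without prl53.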

Additional observations from a re-analysis of the deposited data

Results flagged for a closer look

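The effect of cycloheximide differed between 8 h and 2 h by the interaction term of the edgeR fit for 81 noncoding RNAs in the direction of a higher value at 8 h and for 217 in the direction of a lower value. The RNAs with the largest differences are given with the difference (8 h minus 2 h) on the log2 scale and its adjusted p from edgeR. The difference was -7.41 for meu3 (edgeR adjusted p = 5.8e-14), the meiotic RNA that was higher with the drug at 2 h and lower at 8 h. It was -7.36 for SPNCRNA.1326 (edgeR adjusted p = 1.8e-12), upstream of fbp1, which had 6.54, 11.4 and 8.62 CPM with the drug at 2 h and at most 1.26 CPM at 8 h. It was -6.70 for SPNCRNA.940 (edgeR adjusted p = 3.6e-13) and -6.18 for SPNCRNA.1165 (edgeR adjusted p = 1e-14).

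In the other direction the difference was 4.80 for SPNCRNA.291 (edgeR adjusted p = 3.4e-14), which was at 14.6, 15.8 and 13.3 CPM at 2 h and 1.18, 0.97 and 0.673 CPM with the drug, and at 8 h had 0.877, 1.01 and 1.19 CPM without and 2.2, 1.7 and 1.86 CPM with the drug. It was 4.21 for SPNCRNA.963 (edgeR adjusted p = 2.1e-12) and 3.95 for SPNCRNA.721 (edgeR adjusted p = 4.8e-12). For SPNCRNA.318 it was 3.81 (edgeR adjusted p = 0.044). That value depends on the prior count, since the 8 h group had 0 counts, and the call was lost without several single libraries, among them each of the 8 h libraries.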

How the results depend on the processing

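For the 598 pairs of a named RNA and a comparison in which it was called, 16344 of 16499 recomputed values kept direction and call, 155 kept direction and lost the call, in 51 of the pairs, and none reversed. The share of RNAs lower at 2 h than at 0 h went from 2.79% to 1.22% with the stricter filter. Among RNAs with no overlap with another gene, 3% fell between 4 and 8 h (1.81% of those tested in all), and 20.5% had a higher drug effect at 8 h than at 2 h (13.3%). The difference in share of counts went to 0.0335 points without the 10 most abundant RNAs and to 0.126 points without prl53 (chosen after the data were seen). With library size alone, 54 RNAs rather than 82 were highest at 0 h, and the median log2 change of all genes moved to 0.19 at 8 h, 0.18 at 8 h with drug against 0 h, -0.14 for the drug at 4 h and 0.12 for 4 h against 2 h. The cause of these changes was not tested beyond the smaller set of RNAs.

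Leaving out 1 library gave 72 to 115 RNAs higher and 11 to 15 lower at 8 h than at 4 h, 178 to 201 and 71 to 86 against 0 h, and 71 to 86 and 209 to 235 for the drug effect between times. At 2 h against 0 h it gave 35 to 39 and 14 to 22. The difference in share ranged from 0.278 to 0.306. Replicate numbers were not taken as pairs, because the deviations of same-numbered libraries correlated from -0.41 to 0.44, not over 0.1 in every pair. As a hint from the data and not the design, 13 of 21 libraries, not all, correlated best with their own number. With the replicate number as a block, 35 RNAs were higher and 16 lower at 2 h, 79 and 12 for 8 h against 4 h, and no count moved by over 1.5 times. The share difference under the block was 0.296 (exact permutation p = 0.0039). Depth limits RNAs of low level: in groups with few counts the fitted fold change depends on the prior count.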

Other observations

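SPNCRNA.604, an intergenic RNA that lies upstream of the heme transporter gene str3 on the same strand, had its highest level without drug at 2 h. It stood at 1.92, 2.22 and 1.53 CPM at 0 h, 9.12, 9.41 and 8.69 CPM at 2 h, 1.63, 2.33 and 2.17 CPM at 4 h, and 1.72, 2.6 and 2.08 CPM at 8 h. The libraries of 2 h lay above all others without drug, with a log2 change against 0 h of 2.28 ± 0.19 (adjusted p = 5.3e-10, edgeR). With cycloheximide it had 30.3, 31.9 and 34 CPM at 2 h and 22.4, 22.7 and 20.3 CPM at 8 h, log2 differences of 1.82 ± 0.13 and 3.35 ± 0.16 from no drug. At 2 h the str3 mRNA had 34 ± 5.7 CPM without and 2224 ± 65.9 CPM with the drug.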
